A study of Homo sapiens with 12 samples.

Results

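The zinc finger genes at the distal end of the long arm of human chromosome 19, in band 19q13.4, were followed together with TRIM28, which lies among them. The members were taken from a list of 57 gene symbols, and a transcript was included when the translational efficiency table that the authors deposited pairs it with one of those names. That gave 45 genes with 1 transcript each, of 19972 transcripts in the count table. The other 12 listed genes, ZNF582, ZNF835, ZNF547, ZNF773, ZNF530, ZNF587B, ZNF814, ZNF497, ZNF837, ZNF132, ZNF324B and ZSCAN5A, were not analysed here. ZNF667 was chosen by its own RNA and footprint counts in these libraries, and the changes of ZNF471 and ZFP28 were known too. The genotype values of these 3 genes are therefore given as a description with no test, while the other 42 members were taken by family and position.

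Most members encode KRAB zinc finger proteins, which bind DNA through arrays of C2H2 zinc fingers and carry a KRAB domain. The KRAB domain binds TRIM28, also called KAP1, a scaffold that brings the methyltransferase SETDB1, heterochromatin protein 1 and histone deacetylases to the bound DNA. Genes of this family stand in clusters that grew by tandem duplication, many members repress transposable elements, and TRIM28 is known to keep endogenous retroviruses silent in embryonic stem cells and neural progenitors. A few members carry a SCAN domain, a dimerisation motif, in place of or beside KRAB.

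The Nterm/Nterm neurons were homozygous for an allele of LLPH that the labels name Nterm, and the wt/wt neurons set against them were wild type at LLPH. The change that the Nterm allele makes was not given in the sources used here. Both came from H1, a human embryonic stem cell line, by overexpression of the transcription factor Ngn2, and were collected at day in vitro 14. Both genotypes grew without added glia, in medium with 2 µg/mL doxycycline and 4 µM cytosine arabinoside, an agent that kills dividing cells, and both were collected in cycloheximide at 100 µg/mL and lysed for cytoplasm. Each genotype had 3 RNA-seq libraries from polyA RNA, which measure mRNA level, and 3 Ribo-seq libraries, which count footprints, the mRNA fragments covered by ribosomes. Nothing in the labels says that replicates came from separate cultures or clones, so each p-value measures only the spread between these libraries, which may be technical.

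RNA libraries held 18944427 to 21478215 counts in Nterm/Nterm and 21834425 to 25089790 in wt/wt. Footprint libraries held 12652833 to 15177310 counts in Nterm/Nterm and 13155130 to 16356419 in wt/wt. In 6 of the 12 samples, those of Ribo-seq, tag and title give opposite genotypes. Groups follow the titles, as do the count columns by their names. By the tag every footprint change below has the opposite sign, and ZNF667 would then be nearly absent from RNA of one genotype and from footprints of the other. The RNA of LLPH itself was at 29.4 to 31.7 CPM, counts scaled to library size, in Nterm/Nterm and 27.2 to 28.7 CPM in wt/wt. Its footprints were at 1.71 to 3.12 CPM in Nterm/Nterm and 6.72 to 7.92 CPM in wt/wt. The summed RNA of 14 neuron markers was 18167 to 19646 CPM in Nterm/Nterm and 15826 to 16942 CPM in wt/wt. All 14 had an RNA log2 change above 0. Of these, 9 were called higher in Nterm/Nterm by edgeR's quasi-likelihood test at an adjusted p under 0.05 (64.3%). Of all transcripts tested in RNA, 7.25% were called higher and 10.6% lower. Their summed footprints were 10050 to 10345 CPM in Nterm/Nterm and 7418 to 9531 CPM in wt/wt. The summed RNA of 3 mesenchymal markers, of 6 listed, was 1164 to 1479 CPM in Nterm/Nterm and 1809 to 2163 CPM in wt/wt. By the same test 3 of 3 were called lower. Their summed footprints overlapped between genotypes, at 1775 to 2377 CPM in Nterm/Nterm and 2292 to 2780 CPM in wt/wt. Most of that sum was COL1A2, with means of 1874 CPM in Nterm/Nterm and 2155 CPM in wt/wt, which was not called. COL1A1 and FBN1 were called lower in footprints, with log2 changes of -1.13 and -0.92, as were 8.91% of all transcripts. The summed RNA of 4 neural progenitor markers, of 6 listed, was 811 to 949 CPM in Nterm/Nterm and 1027 to 1102 CPM in wt/wt. By the same test 1 of 4 was called higher and 2 lower, while NES, with a log2 change of -0.19, was not called. The summed footprints of the 4 overlapped too, at 1174 to 1388 CPM in Nterm/Nterm and 1130 to 1466 CPM in wt/wt. In footprints 1 of the 4 was called higher and 1 lower. The summed RNA of 2 stem cell markers, LIN28A and L1TD1, of 6 listed, was 145 to 177 CPM in Nterm/Nterm. In wt/wt it was 219 to 232 CPM. The log2 changes were -0.51 and -0.18, and only LIN28A was called lower. The summed footprints of the 2 were 85.0 to 92.7 CPM in Nterm/Nterm and 115 to 120.2 CPM in wt/wt. The stem cell genes POU5F1 and NANOG, and all 6 listed glial markers, matched no named transcript. In such bulk libraries, fewer cells of a type and less RNA per cell cannot be told apart, and the part of these differences in the changes of the members was not tested.

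ZNF667, a KRAB zinc finger gene whose rat relative Mipu1 is known from ischaemic heart muscle, was almost absent from Nterm/Nterm neurons. Its transcript, ENST00000504904, had 0, 0 and 8 RNA counts in Nterm/Nterm and 357, 291 and 385 in wt/wt. Its 300-base promoter window, from 250 bases before to 50 after the transcription start, is given here beside those of ZNF583 and ZNF470, the nearest members on each side with a promoter entry, to show the CpG content of each. The sequences are those of RefSeq on GRCh38.p14, written 5′ to 3′ on the strand of the gene, and capitals mark CpG dinucleotides, the sites of DNA methylation. The window of ZNF667 lies at chr19:56477296-56477595 on the minus strand, that of ZNF583 at chr19:56403764-56404063 and that of ZNF470 at chr19:56567218-56567517, both on the plus strand.
ZNF667: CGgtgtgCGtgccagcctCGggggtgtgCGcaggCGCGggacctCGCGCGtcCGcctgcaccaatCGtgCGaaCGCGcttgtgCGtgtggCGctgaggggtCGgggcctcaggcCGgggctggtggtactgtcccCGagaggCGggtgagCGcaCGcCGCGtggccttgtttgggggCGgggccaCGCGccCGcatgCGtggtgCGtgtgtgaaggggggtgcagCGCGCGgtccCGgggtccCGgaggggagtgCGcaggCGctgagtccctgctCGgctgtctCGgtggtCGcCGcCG
ZNF583: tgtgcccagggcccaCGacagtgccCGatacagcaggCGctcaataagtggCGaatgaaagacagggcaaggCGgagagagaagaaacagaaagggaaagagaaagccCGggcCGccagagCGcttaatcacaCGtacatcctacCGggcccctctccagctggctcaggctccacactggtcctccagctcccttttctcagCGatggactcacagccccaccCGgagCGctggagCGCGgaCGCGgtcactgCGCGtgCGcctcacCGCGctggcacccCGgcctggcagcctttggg
ZNF470: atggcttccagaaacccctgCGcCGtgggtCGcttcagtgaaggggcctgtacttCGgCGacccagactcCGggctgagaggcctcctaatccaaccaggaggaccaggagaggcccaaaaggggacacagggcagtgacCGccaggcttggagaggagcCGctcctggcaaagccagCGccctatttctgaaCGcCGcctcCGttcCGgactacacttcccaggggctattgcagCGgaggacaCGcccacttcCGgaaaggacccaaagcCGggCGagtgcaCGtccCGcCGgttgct
The ZNF667 window holds 42 CpG dinucleotides and is 75.3% G and C. The ZNF583 window holds 23 and the ZNF470 window 21, and each is 64.3% G and C.

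A near absence of ZNF667 was seen in both assays. The summed RNA of Nterm/Nterm was 0.922% of that of wt/wt after scaling, with an exact 95% interval of 0.397% to 1.82% that covers counting error only. In CPM the RNA averaged 0.124 ± 0.216 in Nterm/Nterm and 14.3 ± 1.03 in wt/wt (SD, n = 3 each). All 8 counts came from Nterm/Nterm replicate 3. A count of 0 allows up to 0.151 and 0.158 CPM in the other Nterm/Nterm libraries, taking 3 counts as the limit. Footprint counts of ZNF667 were 0, 2 and 1 in Nterm/Nterm and 231, 282 and 214 in wt/wt. The summed footprints of Nterm/Nterm were 0.448% of those of wt/wt, with an interval of 0.0921% to 1.31%, and the library at 0 allows up to 0.240 CPM. The fitted log2 changes of ZNF667 were -6.70 ± 0.37 in RNA and -7.64 ± 0.30 in footprints (SE), values that depend on how low counts are moderated. The counting of reads from the antisense gene ZNF667-AS1 was not given in the sources used here.

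The next coding genes after ZNF667 are ZNF471 and ZFP28, both KRAB zinc finger genes, and their levels stood apart between genotypes in opposite directions. ZNF471, known as a gene silenced by promoter methylation in several tumours, had 220, 182 and 232 RNA counts in Nterm/Nterm and 732, 676 and 801 in wt/wt. Its RNA in Nterm/Nterm was 34.2% of that in wt/wt, a log2 change of -1.55 ± 0.08 (SE). Its footprint counts were 18, 16 and 21 in Nterm/Nterm and 51, 61 and 56 in wt/wt, a log2 change of -1.49 ± 0.21. ZFP28 had 491, 414 and 566 RNA counts in Nterm/Nterm and 248, 280 and 290 in wt/wt. Its RNA in Nterm/Nterm was 214% of that in wt/wt, a log2 change of 1.09 ± 0.10. Its footprint counts were 357, 335 and 454 in Nterm/Nterm and 200, 240 and 182 in wt/wt, a log2 change of 0.99 ± 0.10. For ZNF471 and ZFP28, no Nterm/Nterm library overlapped a wt/wt library in either assay. These values chose the genes and carry no test.

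The members on either side of those 3 genes had smaller changes. ZNF583, the coding gene just before ZNF667 and a KRAB zinc finger gene, had 19.7, 17.7 and 22.6 CPM of RNA in Nterm/Nterm and 14.9, 15.0 and 16.8 CPM in wt/wt. All 3 Nterm/Nterm libraries lay above all 3 wt/wt libraries, and the log2 change was 0.36 ± 0.10 (adjusted p = 0.0241, edgeR's quasi-likelihood test with Benjamini-Hochberg adjustment over all transcripts). Its footprints averaged 16.2 ± 1.32 CPM in Nterm/Nterm and 12.1 ± 1.02 CPM in wt/wt (SD, n = 3 each), a log2 change of 0.42 ± 0.11 (edgeR adjusted p = 0.0171). ZNF470, on the far side of ZFP28, had 28.9, 28.5 and 30.0 CPM of RNA in Nterm/Nterm and 25.9, 23.6 and 26.8 CPM in wt/wt. These groups did not overlap, but the log2 change of 0.19 ± 0.07 missed the threshold (edgeR adjusted p = 0.068). With the replicate number as a block, ZNF470 RNA passed it (edgeR adjusted p = 0.0231). ZNF71, the next member, had log2 changes of 0.13 in RNA and 0.06 in footprints, with edgeR adjusted p of 0.206 and 0.697.

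**Figure D1:**
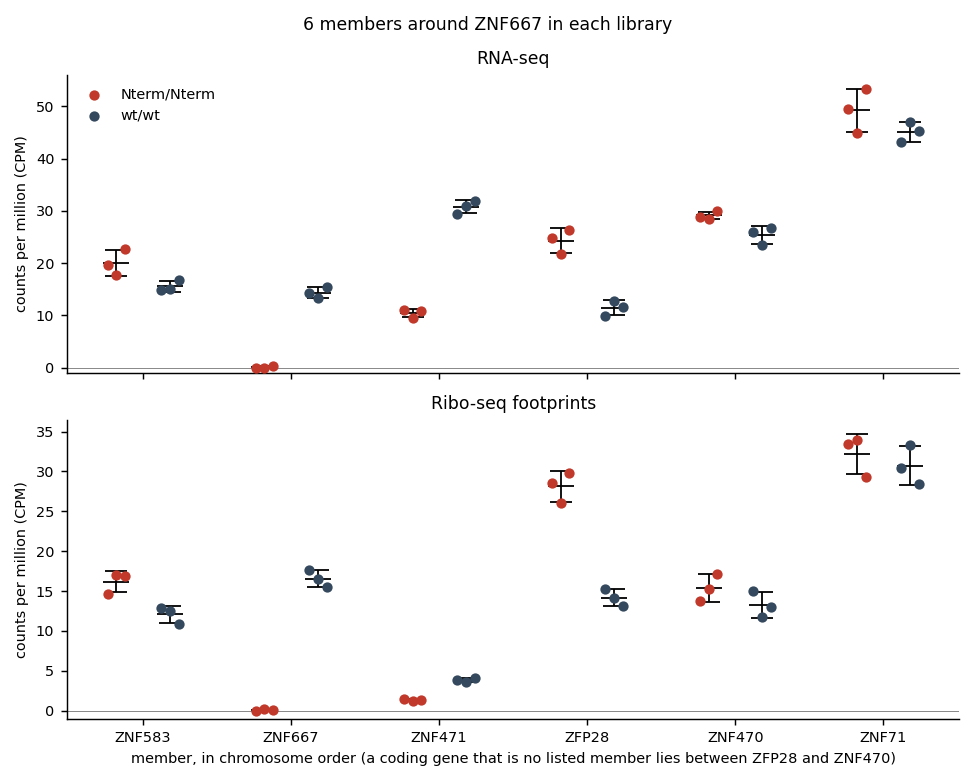
Level in CPM (y axis) of 6 members in chromosome order (x axis) in RNA-seq (top) and Ribo-seq (bottom), one point per library, Nterm/Nterm in red left of wt/wt in dark blue, with lines for the mean and bars for the SD of 3 libraries. ZNF667 sits at or near 0 in Nterm/Nterm, ZNF471 is lower and ZFP28 higher, while ZNF71 overlaps between genotypes.

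Across the other 42 members the RNA differences were small. By edgeR's quasi-likelihood test, 4 were higher in Nterm/Nterm (9.52%), namely ZNF583, ZNF749, ZNF154 and ZNF586, and 1 was lower (2.38%), namely ZSCAN18. Of 14659 transcripts tested, 7.25% were higher and 10.6% lower, 17.9% in all. Members could come only from transcripts named in the authors' table. Of 10912 such transcripts tested, 8.91% were higher and 11.7% lower. The log2 changes of the 42 ran from -0.35 to 0.36 with a median of 0.08, and 36 of 42 were above 0. For all transcripts tested the median was -0.00 with 49.9% above 0, and for the named ones 0.01 with 52.4%. Groups did not overlap for 18 of the 42 (42.9%), against 36.2% of all transcripts and 39.2% of the named ones. With the replicate number as a block, 10 of the 42 were called, 9 of them higher, while 30.7% of all transcripts were. The block added ZNF470, MZF1, ZNF17, ZNF418 and ZNF776. Their log2 changes in that fit were 0.20, 0.23, 0.29, 0.23 and 0.18, with edgeR adjusted p of 0.0122 to 0.04. The summed RNA of the 41 of these that are zinc finger genes, leaving out TRIM28, was 1137, 1095 and 1139 CPM in Nterm/Nterm and 1054, 1061 and 1081 CPM in wt/wt.

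The RNA changes of the members called higher were modest in size. ZNF154, a KRAB zinc finger gene whose promoter is methylated in many tumours, had 42.8, 43.3 and 47.2 CPM in Nterm/Nterm and 33.5, 34.0 and 39.1 CPM in wt/wt. The groups did not overlap, and the log2 change was 0.32 ± 0.07 (edgeR adjusted p = 0.00982). ZNF749 had 14.8, 15.3 and 16.2 CPM of RNA in Nterm/Nterm and 11.7, 12.7 and 12.3 CPM in wt/wt, a log2 change of 0.33 ± 0.08 (edgeR adjusted p = 0.0175). ZNF586, another KRAB zinc finger gene, had 10.5, 10.7 and 12.7 CPM of RNA in Nterm/Nterm and 8.85, 9.29 and 8.62 CPM in wt/wt, a log2 change of 0.34 ± 0.11 (edgeR adjusted p = 0.0433). All 3 Nterm/Nterm libraries lay above all wt/wt libraries for both genes.

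ZSCAN18, a SCAN domain gene, was the one member of the 42 called lower in RNA. It had 73.8, 69.4 and 68.7 CPM in Nterm/Nterm and 82.7, 86.6 and 87.9 CPM in wt/wt, with no overlap. The log2 change was -0.28 ± 0.05 (edgeR adjusted p = 0.00309), and it passed the threshold in 6 of 6 fits that left out 1 library, with an edgeR adjusted p of at most 0.0231. The 4 higher calls were less steady in such fits, which did not use the replicate block. With the block and all libraries, the 4 passed at edgeR adjusted p of 5.8e-05 to 0.0167. Without wt/wt replicate 1, or without wt/wt replicate 2, 0 of the 4 passed, and ZNF583, ZNF749 and ZNF586 did not pass without Nterm/Nterm replicate 3. DESeq2 did not call ZNF586 (adjusted p = 0.069).

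Footprint changes of the 42 members were also small and mostly above 0. By edgeR's test 4 were higher in Nterm/Nterm (9.52%), namely ZNF444, ZNF583, ZNF17 and ZNF154, and 0 were lower, while 7 passed an unadjusted 0.05, as did 27.3% of all transcripts. Of 13566 transcripts tested, 4.36% were higher and 8.91% lower. Of 10765 named transcripts tested, 4.8% were higher and 8.13% lower. The median log2 change of the 42 was 0.10, with a range of -0.06 to 0.47, and 39 of 42 were above 0. For all transcripts the median was 0.01 with 52.1% above 0, and for the named ones 0.02 with 55.8%. Groups did not overlap for 13 of the 42 (31.0%), against 30.7% of all transcripts and 30.6% of the named ones.

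ZNF444, a SCAN domain gene, had 43.8, 42.9 and 40.9 CPM of footprints in Nterm/Nterm and 31.2, 35.4 and 37.0 CPM in wt/wt, a log2 change of 0.30 ± 0.08 (edgeR adjusted p = 0.0202). Its RNA change was 0.01 on the log2 scale (edgeR adjusted p = 0.938). ZNF17, a KRAB zinc finger gene, had 8.81, 7.93 and 9.21 CPM of footprints in Nterm/Nterm and 5.88, 7.22 and 5.56 CPM in wt/wt, a log2 change of 0.47 ± 0.15 (edgeR adjusted p = 0.0376). ZNF154 had 20.0, 17.6 and 20.8 CPM of footprints in Nterm/Nterm and 15.5, 15.5 and 15.6 CPM in wt/wt, a log2 change of 0.33 ± 0.10 (edgeR adjusted p = 0.037). For all 3 of these genes, the Nterm/Nterm libraries lay above all wt/wt libraries. ZNF583 and ZNF154 were called in both assays, but same-numbered footprint and RNA libraries of Nterm/Nterm deviated together, with correlations of 0.117 to 0.334, so the assays are not independent of each other. DESeq2 did not call ZNF17 or ZNF154 in footprints, with adjusted p of 0.0739 and 0.0678, and edgeR called 1 to 3 of the 42 when 1 library was left out.

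**Figure D2:**
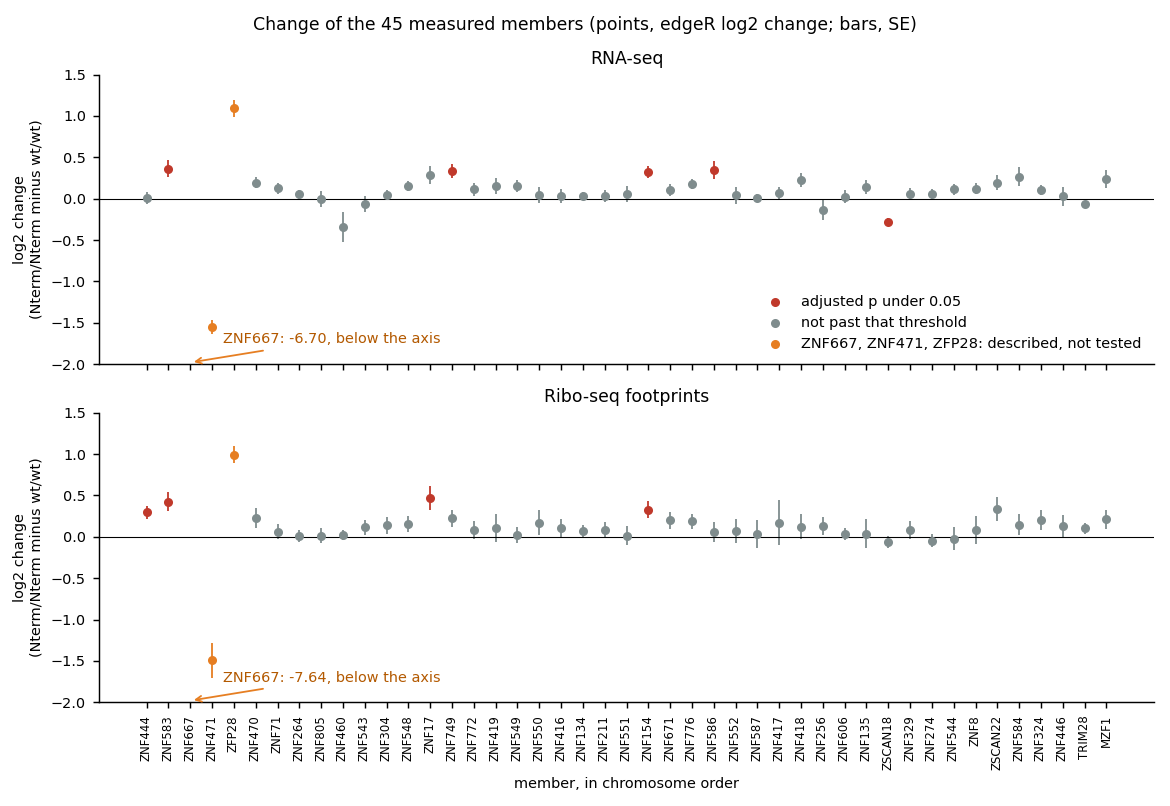
Log2 change, Nterm/Nterm minus wt/wt (y axis), of the 45 members in chromosome order (x axis), in RNA (top) and footprints (bottom), with SE as bars. Points in red passed an adjusted p of 0.05, orange marks the 3 genes described without a test, and grey points lie within 0.5 of 0.

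TRIM28, the co-repressor of KRAB proteins, was the member with the most reads and did not pass the threshold in either assay. Its RNA averaged 270 ± 1.5 CPM in Nterm/Nterm and 283 ± 7.16 CPM in wt/wt (SD, n = 3 each). The libraries held 272, 269 and 269 CPM in Nterm/Nterm and 291, 278 and 281 CPM in wt/wt, so that the groups did not overlap, and the log2 change was -0.07 ± 0.04 (edgeR adjusted p = 0.232). Its footprints were 494, 519 and 501 CPM in Nterm/Nterm and 470, 452 and 490 CPM in wt/wt, again with no overlap, and the log2 change was 0.10 ± 0.07 (edgeR adjusted p = 0.386).

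Of 26 listed genes of the machinery that works with KRAB proteins, 24 were tested. In RNA 4 were higher in Nterm/Nterm (16.7%) and 0 lower, with a median log2 change of 0.06, while 17.9% of all transcripts were called in RNA, 7.25% higher and 10.6% lower. These were the chromatin remodellers CHD3 (0.23) and SMARCAD1 (0.17) and the heterochromatin protein 1 genes CBX3 (0.16) and CBX5 (0.18), with edgeR adjusted p of 0.00878, 0.0199, 0.0251 and 0.0478. In footprints 1 of 24 was higher (4.17%) and 2 were lower (8.33%), close to the 4.36% and 8.91% of all transcripts. The one higher was the ATPase gene MORC2 (0.21, edgeR adjusted p = 0.0401). The deacetylase gene HDAC1 (-0.25) and the DNA methyltransferase gene DNMT3B (-0.36) were lower in footprints, with edgeR adjusted p of 0.0403 and 0.0327.

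Other zinc finger genes gave RNA medians close to that of the members. Over the 42 members the median RNA log2 change was 0.08, and with ZNF667, ZNF471 and ZFP28, which these data chose, it was 0.07 over all 45. It was 0.06 over 323 genes named ZNF that are no members. Of these, 30 were called higher (9.29%) and 13 lower (4.02%) in Nterm/Nterm, against 7.25% and 10.6% of all transcripts. These 323 include the next 2 sets. The RNA median was 0.05 over 20 matched zinc finger genes of 19p12, of which 1 was called higher (5%) and 1 lower (5%). It was 0.11 over 9 of 19q13.31, of which 0 were called. In footprints the median was 0.10 for the 42 members, 0.10 for all 45 and 0.04 for the ZNF genes that are no members. It was 0.05 for the 19p12 genes and 0.16 for those of 19q13.31. Between the first and the last member RefSeq places 29 coding genes that are no members. Of these, 6 matched a transcript, and 0 of the 6 were called in RNA, with log2 changes of -0.10 to 0.17. In footprints 1 of the 6 was called higher (16.7%), against 4.36% of all transcripts. This was UBE2M (0.20, edgeR adjusted p = 0.0401).

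**Figure D3:**
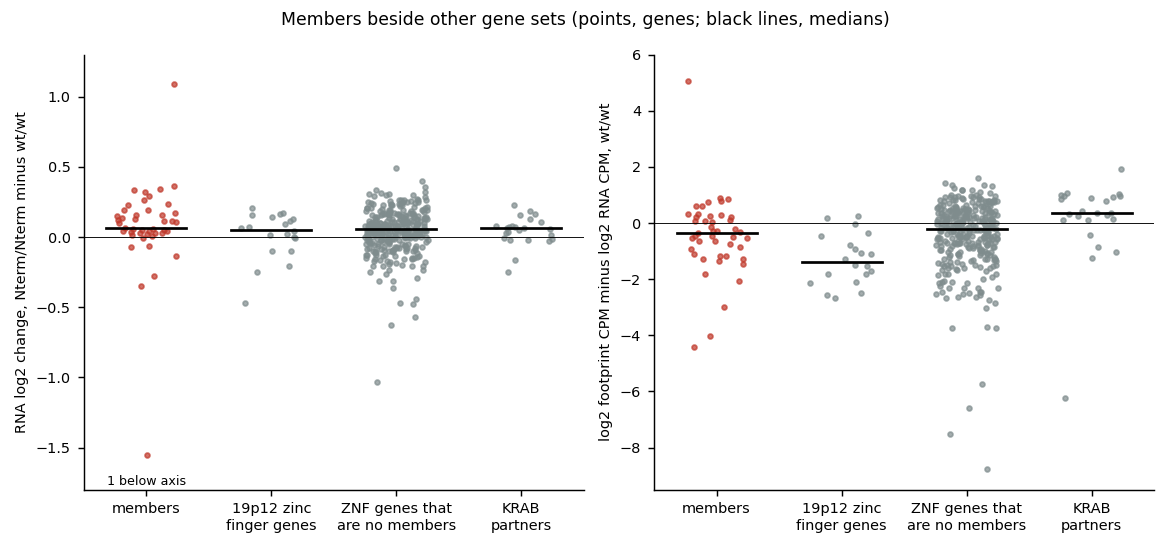
RNA log2 change, Nterm/Nterm minus wt/wt (left), and log2 of footprints over RNA in wt/wt (right), one point per gene, for the members, 20 zinc finger genes of 19p12, 323 ZNF genes that are no members, the 19p12 genes among them, and 24 KRAB partners, with black lines for medians. The member medians include ZNF667, ZNF471 and ZFP28. The RNA medians lie between 0.05 and 0.07, and ZNF667 lies below the axis. The footprint ratio has its lowest median, -1.38, in the 19p12 genes.

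Levels of the members differed in how many reads stood behind them. Transcript lengths were not used here, so levels in CPM are not compared between genes, and CPM serves here as a measure of read support. The median member had 24.1 CPM of RNA in Nterm/Nterm and 22.3 CPM in wt/wt, and the median coefficient of variation over 3 libraries was 6.21% in Nterm/Nterm and 4.44% in wt/wt. After TRIM28 and ZSCAN18, ZNF134 had the most RNA reads, with 68.4, 67.4 and 71.0 CPM in Nterm/Nterm and 69.0, 65.6 and 67.0 CPM in wt/wt, and the groups overlapped. Over all RNA libraries ZNF460 had the fewest, with 78, 65 and 99 RNA counts in Nterm/Nterm and 149, 114 and 102 in wt/wt. Its log2 change of -0.35 ± 0.18 did not pass the threshold (edgeR adjusted p = 0.215), and in CPM the groups overlapped. ZNF256 had 6.51, 6.62 and 6.58 CPM of RNA in Nterm/Nterm and 6.59, 8.01 and 7.07 CPM in wt/wt, a log2 change of -0.13 ± 0.12 (edgeR adjusted p = 0.488).

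Translational efficiency is the footprint level of a gene relative to its RNA level. It was not called changed for any of the 42 members other than ZNF667, ZNF471 and ZFP28. By the interaction of assay and genotype in edgeR, 0 of the 42 passed an adjusted 0.05, against 0.0203% of 14786 transcripts. An unadjusted 0.05 was passed by 4 of the 42 and by 4.6% of all transcripts. The 4 were ZNF444, ZNF460, ZSCAN18 and TRIM28, with log2 changes of 0.29, 0.37, 0.22 and 0.17. DESeq2 called 0 of the 42 and gave an adjusted p to only 1 of all 45 members. For ZNF667 the log2 change in translational efficiency was -0.99 ± 1.14 (SE) and rests on 8 RNA counts and 3 footprints in Nterm/Nterm. The authors' deposited ratio for ZNF667 lay the other way, at 2.94 ± 3.63 in Nterm/Nterm and 1.12 ± 0.132 in wt/wt (the authors' SD), so these counts give it no direction. By the authors' deposited table, TRIM28, ZSCAN18 and ZNF256 were the 3 members that had an unadjusted p under 0.05 (0.0194, 0.0262 and 0.0488), against 4.67% of its 10932 transcripts.

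Among themselves the members differed widely in footprints relative to RNA. The log2 of footprints over RNA in wt/wt ran from -4.42 to 5.05 over the 45 members, while the genotype changes in translational efficiency ran from -0.28 to 0.37 over the 42. The genotype contrast was not used for this comparison, which set footprint libraries against RNA libraries within wt/wt. By edgeR's test 13 of 45 members were higher in footprints than in RNA and 26 were lower, against 47.6% higher and 34.6% lower of 14519 transcripts, 82.2% in all. The median log2 of footprints over RNA was -0.35 for the members and 0.18 for all transcripts, and 32 of 45 members lay below the median of all transcripts. The 6 members not called were ZNF444, ZNF549, ZNF416, ZNF551, ZSCAN18 and ZNF274, the last a gene whose protein brings SETDB1 to zinc finger gene bodies. In the authors' deposited table the median ratio of footprints to RNA was 0.763 in Nterm/Nterm and 0.754 in wt/wt for the members, and 1.10 in Nterm/Nterm and 1.11 in wt/wt for all transcripts. The part of each transcript that the authors counted was not given in the sources used here, and its part in these ratios was not tested.

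ZNF460 stood at the upper end, with far more footprints than RNA reads. It had 2174, 2121 and 2586 footprint counts in Nterm/Nterm and 2270, 2777 and 2278 in wt/wt, beside the low RNA counts given above. Its footprints were 42.5 times its RNA in Nterm/Nterm and 32.8 times in wt/wt, in CPM. The wt/wt log2 value was 5.05 ± 0.09 (SE), rank 55 from the top of 14519 transcripts. The authors' deposited ratio for ZNF460 was 41.0 ± 5.35 in Nterm/Nterm and 32.2 ± 5.73 in wt/wt (the authors' SD). The treatment of reads that match several transcripts was not given in the sources used here, and the part it has in the ratio of ZNF460 was not tested. The next members were ZNF256 at 0.89, ZNF543 at 0.84, ZNF606 at 0.79 and TRIM28 at 0.75, as log2 of footprints over RNA in wt/wt.

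ZNF417 and ZNF587, near-identical KRAB genes known to bind endogenous retroviral sequences, stood at the lower end. ZNF587 had 1258, 1229 and 1337 RNA counts in Nterm/Nterm and 1533, 1415 and 1569 in wt/wt. Its footprint counts were 50, 50 and 61 in Nterm/Nterm and 50, 62 and 58 in wt/wt, so that footprints were 0.0625 of RNA in Nterm/Nterm and 0.0616 of RNA in wt/wt. For ZNF417 footprint counts were 15, 19 and 21 in Nterm/Nterm and 17, 24 and 12 in wt/wt, or 0.0493 of RNA in Nterm/Nterm and 0.0454 of RNA in wt/wt. The log2 values in wt/wt were -4.42 ± 0.15 for ZNF417 and -4.01 ± 0.09 for ZNF587 (SE), ranks 520 and 599 from the bottom of 14519. The treatment of reads shared between such copies was not given in the sources used here, and their values are uncertain. The same holds for ZNF772 and ZNF419, which have close relatives in the cluster.

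ZNF471, one of the neighbours of ZNF667, came next above them, at -2.99 ± 0.11 in wt/wt. Its ratio of footprints to RNA was 0.129 in Nterm/Nterm and 0.125 in wt/wt. ZNF667 lay at 0.22 ± 0.10 in wt/wt and ZFP28 at 0.32 ± 0.11. Below 0 were also ZNF8 at -2.06, ZNF419 at -1.82 and ZNF544 at -1.47. Of the sets compared, the 20 matched genes of 19p12 had a median of -1.38, with 2 higher and 17 lower in footprints. The 323 ZNF genes that are no members, which include those 20, had a median of -0.20, and the 24 KRAB partners one of 0.35.

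**Figure D4:**
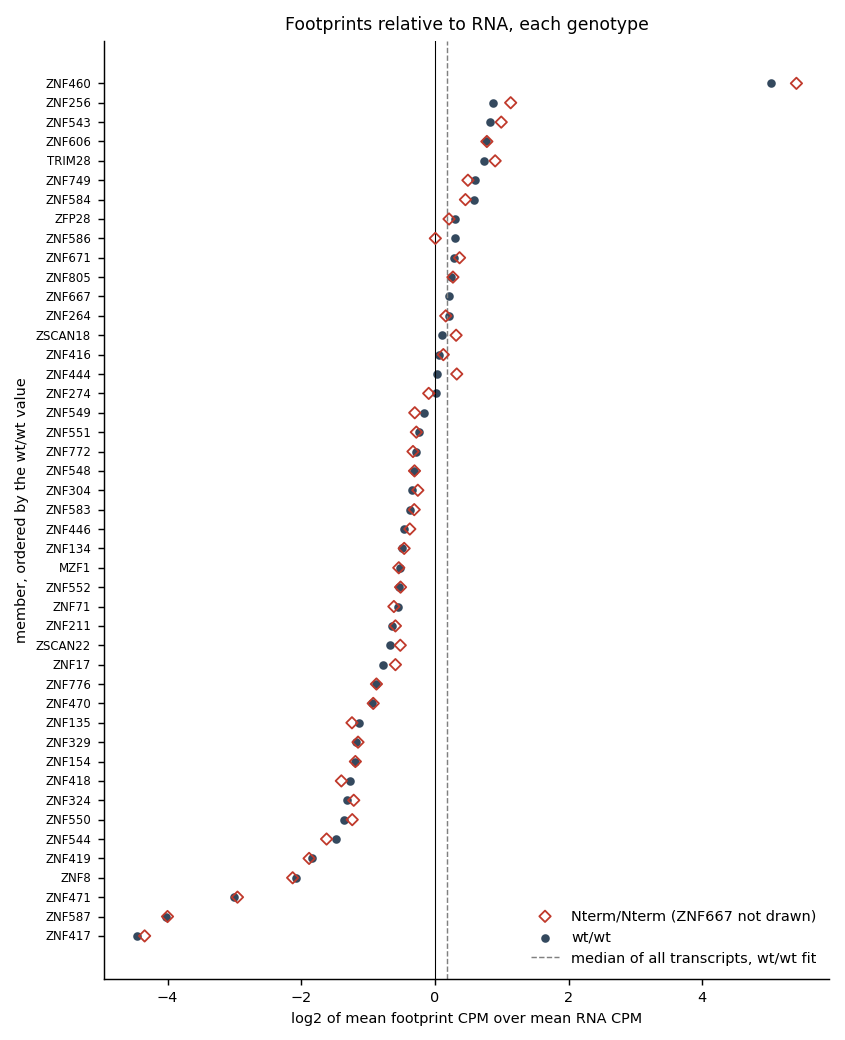
Log2 of mean footprint CPM over mean RNA CPM (x axis) for each member (y axis, ordered by wt/wt). Open red diamonds mark Nterm/Nterm, with none drawn for ZNF667, and dark blue points mark wt/wt. A dashed line lies at the median of all transcripts. ZNF460 stands at the top, ZNF417, ZNF587 and ZNF471 at the bottom, and the symbols of the genotypes lie close together for most members.

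The promoter windows of the members were compared for CpG content, which the choice of members did not use. RefSeq windows were matched for 51 of the 57 listed genes and for 39 of the 45 measured ones, and none was given for ZNF471, ZFP28, TRIM28, ZNF417, ZNF552 or ZNF211. The 39 measured members had a median of 22 CpG dinucleotides in 300 bases, with a range of 11 to 42, while all 35116 RefSeq windows had a median of 14. Each member entered with a single window. The 35116 were not reduced in that way, nor limited here to coding or expressed genes. Windows of other zinc finger genes were not counted, so whether these contrasts are particular to the members was not tested. ZNF667, with the sequence printed above, had the most of the 39, and 94.2% of all windows have fewer. ZSCAN18, whose RNA was lower in Nterm/Nterm, had 36, the next highest count. ZNF324 had 35, and ZNF584 and ZNF606 had 34 each. Their RNA log2 changes were 0.10, 0.27 and 0.02, none past the threshold. ZNF154, whose RNA was higher, had 14. A relation between CpG content and RNA change was not tested. The sequence TATAAA, searched on both strands, was found in 2.56% of the 39 windows and 11.5% of all windows. The sequence CCAAT, also on both strands, was found in 59.0% of the 39 windows and 34.6% of all windows. Such matches describe the letters in these windows, and methylation was not measured.

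**Figure D5:**
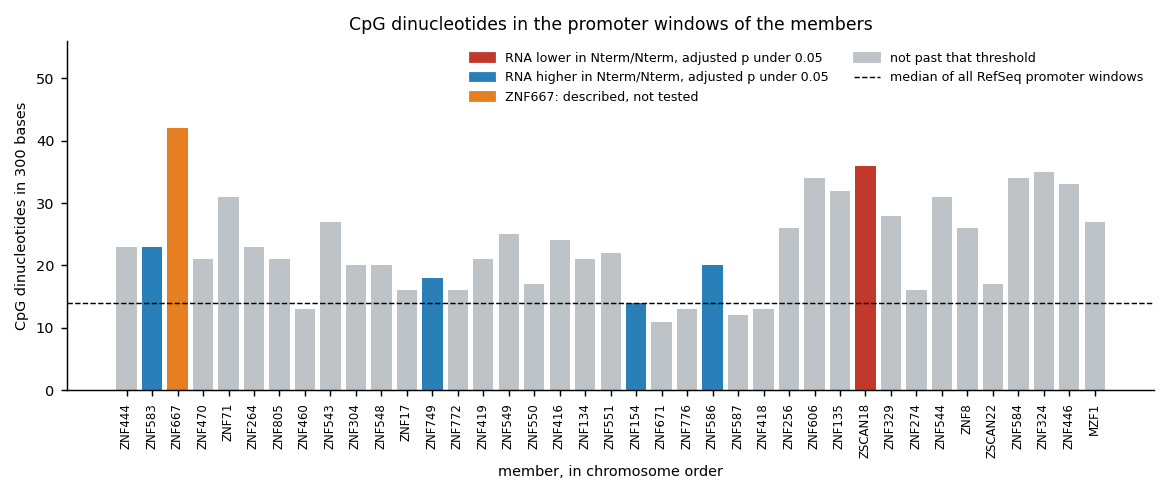
Number of CpG dinucleotides in the 300-base promoter window (y axis) of the 39 measured members with a RefSeq window, in chromosome order (x axis), with a dashed line at 14, the median of all windows. ZNF667, in orange, has 42, ZSCAN18, in red, has 36, and the 4 genes with higher RNA, in blue, have 14 to 23. ZNF324 has 35, and ZNF584 and ZNF606 have 34 each, all in grey for RNA not past the threshold.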

How the data were processed

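RNA-seq and Ribo-seq libraries of 2 genotypes were used, 3 per genotype and assay. The deposited count table holds whole-number, unnormalised counts per transcript. Per the file headers, the authors' other table holds a footprint to RNA ratio for each genotype, with its SD, and an unadjusted p-value. A further deposited column of 0 and 1 was not used. The submitters' processing notes name Salmon 1.4.0, Bowtie2 2.3.4.3, UMI-tools 1.0.1, cutadapt 2.4, limma and edgeR, without roles, and the build GRCh37. The treatment of reads that match several transcripts was not given in the sources used here. The series design text describes another experiment, so the comparisons follow the sample labels.

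All transcripts were fitted in R 4.3.3 with edgeR 4.0.16 (TMM factors, filterByExpr, two-sided quasi-likelihood F test, Benjamini-Hochberg adjustment, threshold 0.05), separately for RNA, for footprints, for the interaction of assay and genotype over 12 libraries, and for assay within wt/wt. All 45 members passed the filter in each fit, ZNF667 through its wt/wt counts. Changes are relative to the other transcripts. The SE of a log2 change is its size divided by the square root of F, and CPM are scaled by TMM. Scripts were tested on simulated counts. Alternatives were DESeq2 1.42.0, its size factors, no filter, a replicate block, leaving out each library and, for footprints, the genotype tag. Same-numbered RNA libraries of both genotypes deviated together, with correlations of 0.113 to 0.246, so the numbers were taken to pair them. The RNA fit reported as main did not use this pairing, which entered only through the replicate block. Footprint libraries of both genotypes did not all do so (0.0369 to 0.229), while footprint and RNA libraries of Nterm/Nterm did (0.117 to 0.334) and those of wt/wt did not all (0.0408 to 0.180). Named were TRIM28, members past the threshold, the 3 with the highest and the 3 with the lowest mean RNA level, and the neighbours of ZNF667. ZNF470, ZNF71, the members named for footprints against RNA, LLPH and the promoter windows were chosen after values had been seen. The members, lists and tests were chosen with earlier results of these data known.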

Additional observations from a re-analysis of the deposited data

How the results depend on the processing

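Counts here cover the 42 members other than ZNF667, ZNF471 and ZFP28 for genotype, and all 45 for footprints against RNA in wt/wt. In RNA, 5 were called and 4 were higher. The replicate block, for which the RNA libraries are paired, gave 10 and 9. Leaving out 1 library gave 1 to 5 called and 0 to 4 higher, and the fewest came without wt/wt replicate 1 or 2. Over all transcripts these fits called 841 to 2851, the block 4504, and the fit as reported 2624. In footprints, 4 were called, all higher. DESeq2's Wald test called 2, both higher, and leaving out 1 library gave 1 to 3 called and 1 to 3 higher. Over all transcripts leaving out 1 library gave 954 to 2045 calls, beside 1800. With the genotype tag, 0 members were higher and 4 lower in footprints and the median log2 change was -0.10. For translational efficiency the tag gave 11 calls, 1 higher and 10 lower, with a median of -0.19, and 4150 calls over all transcripts beside 3. DESeq2 called 27 of all transcripts and the block 20, with 0 members in each. Leaving out 1 library gave a median translational efficiency change of -0.0092 (without Nterm/Nterm footprint replicate 3) to 0.0498, beside 0.03. These differences come from the swapped labels for the tag; for the other settings the cause was not tested. The counts for footprints against RNA in wt/wt stayed within 1.5 times in every alternative run. The block changed no other count of member calls by that much. ZNF667 has no Nterm/Nterm RNA count left without Nterm/Nterm replicate 3, so the size of its fitted change is poorly set. Intervals and limits cover counting error only.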
